A study of Mus musculus with 20 samples.

Results

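Cyclopiazonic acid (CPA) for 12 h was compared with no CPA in NIP cultures, motor neurons of cranial type derived from mouse embryonic stem cells. The comparison holds 4 of the 20 libraries in the series: 2 untreated NIP libraries at 12 h and 2 NIP libraries given 20 µM CPA for 12 h, with replicate numbers 1 and 2 on each side. Libraries were taken by line, treatment and time in their labels. By the field's usage, NIP lines carry inducible Neurog2, Isl1 and Phox2a, and NIL lines, the spinal type used for comparison, carry Lhx3 in place of Phox2a. The labels name no disease allele, strain or cell clone, and treatment began on day 2 of neuron culture, in Neurobasal medium with 2% fetal bovine serum and B27. Titles name the 2 treatment times 12 h and 36 h. The treatment and design texts name them 6 h and 12 h instead, and the titles were followed. Counts per gene cannot separate an inserted Neurog2, Isl1 or Phox2a sequence from the cell's own copy. The labels do not say whether replicates were separate cultures, so p-values measure the spread between replicate libraries, which may be technical. That spread was estimated over all 20 libraries of the series, not the 4 compared here alone.

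CPA inhibits SERCA, the pump by which the endoplasmic reticulum (ER) takes up calcium. Many ER chaperones need that calcium, so unfolded proteins build up and the unfolded protein response (UPR) begins. Its sensors are PERK (Eif2ak3), which slows translation and lets ATF4 be made, IRE1 (Ern1), which splices Xbp1 mRNA, and ATF6, which is cut to release a transcription factor. ATF6 and spliced XBP1 turn on chaperones and the machinery that degrades misfolded proteins, while ATF4 and its partner CHOP (Ddit3) turn on genes of amino acid supply and of cell death.

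The 4 libraries held 20841690 to 30321152 gene reads, and Rn45s, the ribosomal RNA precursor, took 7.22% to 13.8% of them. Replicates differed by more than sampling noise (chi-square per degree of freedom 39.1 untreated and 46.5 with CPA). Phox2a was at 130 and 222 CPM (reads per 1000000 of the TMM-scaled library size) in untreated replicates 1 and 2 and at 56.9 and 82.6 with CPA (log2 change -1.30 ± 0.48, SE, adjusted p = 0.0985). Lhx3, the spinal factor, had 4 reads over both untreated libraries and 0 over both CPA libraries. Markers of other cells were unequal between replicates: 18 endoderm, epithelium and endothelium markers summed to 1393 and 4264 CPM in untreated replicates 1 and 2 and to 901.4 and 5008 with CPA, higher in replicate 2 on both sides. Proliferation markers, at sums of 203.9 and 353.1 CPM untreated and 196.5 and 385 CPM with CPA, were also higher in replicate 2 on both sides. In bulk libraries fewer cells of a type and less RNA per cell cannot be told apart.

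CPA changed 2083 of 14792 genes tested, 14.1%, with 1116 higher (7.54%) and 967 lower (6.54%) at an adjusted p below 0.05 (edgeR quasi-likelihood test, replicate number as a block, Benjamini-Hochberg). Among them 526 rose and 409 fell at least 2-fold (3.56% and 2.77% of genes tested), and 88 rose and 30 fell at least 8-fold. The median log2 change over all genes was -0.016. Both CPA libraries lay above both untreated ones in 27.1% of genes tested and below both in 27.9%. Without the replicate block 696 genes passed (4.71%), of which 438 rose and 258 fell (2.96% and 1.74%). The count was 926 and 1048 without untreated replicate 1 or 2, and 858 and 1202 without CPA replicate 1 or 2. All 2083 genes moved in the same direction within both replicate numbers, which the blocked fit to these same libraries favours. Over all genes tested the log2 ratios within replicate 1 and within replicate 2 correlated at r = 0.749.

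**Figure D1:**
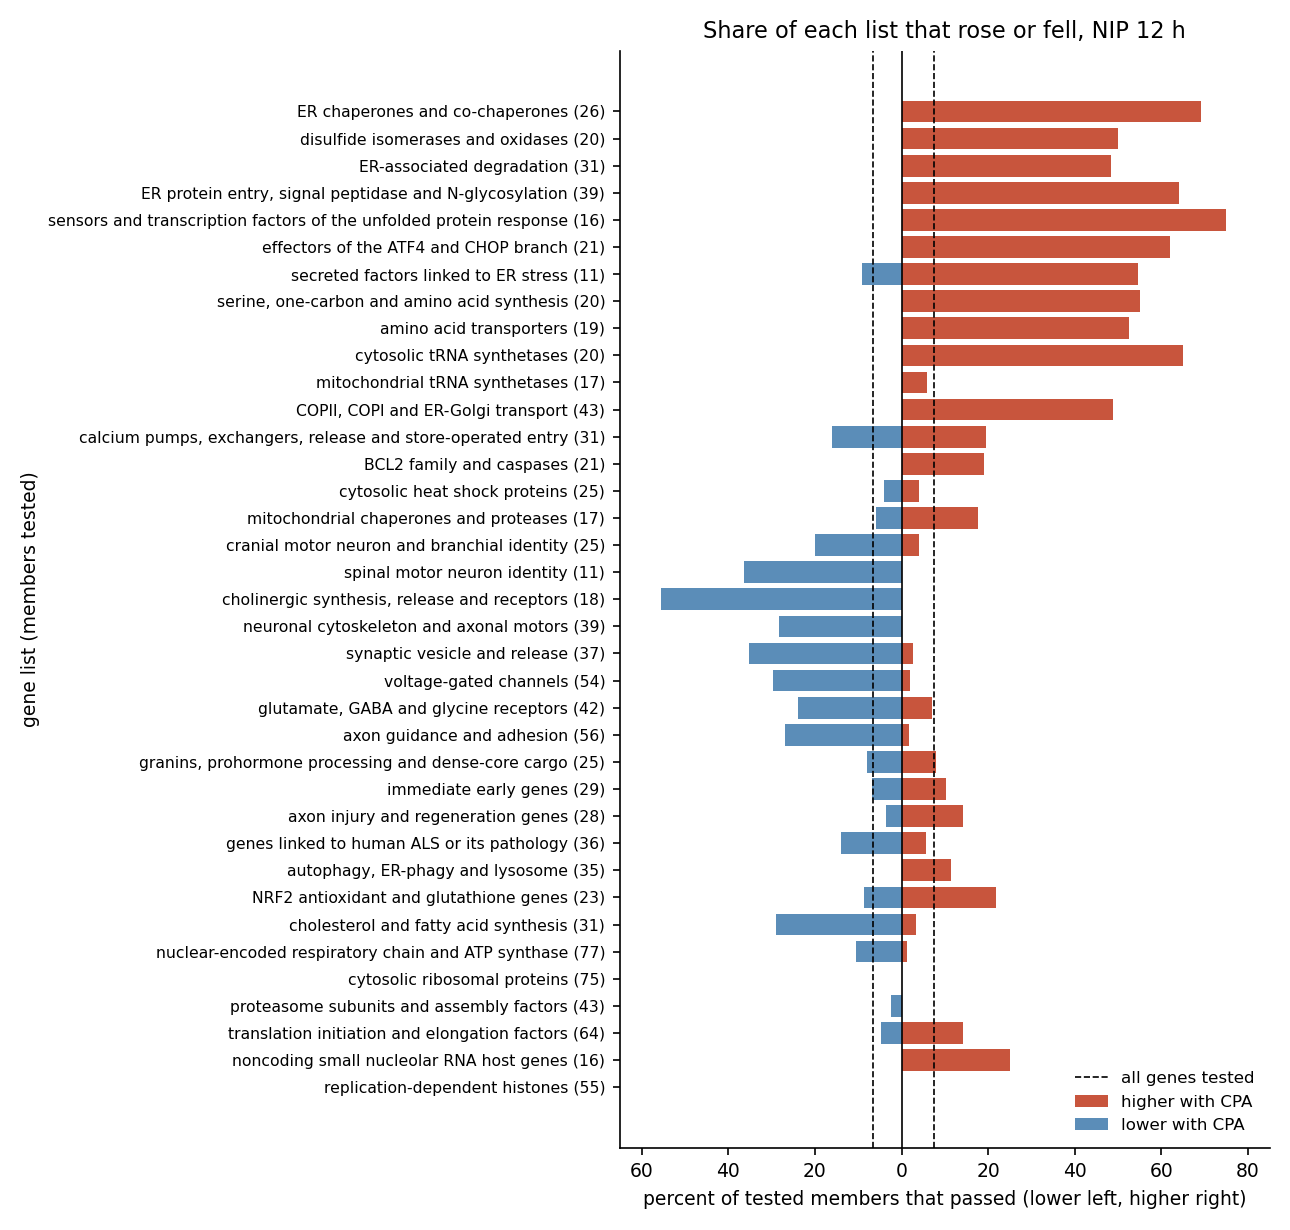
Percent of tested members of each gene list that rose (red, to the right) or fell (blue, to the left) in NIP after 12 h of CPA, with the number tested in brackets and dashed lines at the shares over all genes, 7.54% higher and 6.54% lower. Lists of ER folding, transport, UPR and amino acid genes extend to the right, and lists of neuronal function to the left.

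Most ER chaperones rose. Of 26 chaperones and co-chaperones 18 rose and 0 fell (69.2% against 7.54% of all genes), with a median log2 change of 1.06. Hspa5, encoding BiP, the main Hsp70 of the ER, was at 355 and 369 CPM in untreated replicates 1 and 2 and at 3160 and 3610 CPM with CPA. Both CPA libraries lay far above both untreated ones, a log2 change of 3.22 ± 0.26 (SE; adjusted p = 7.65e-07). Hsp90b1, the Hsp90 of the ER, went from 380 and 351 CPM to 2550 and 2730 (2.85 ± 0.31, adjusted p = 1.93e-05). Hyou1, which exchanges nucleotides on BiP, went from 204 and 201 CPM to 1380 and 1200 (2.67 ± 0.24). These 3 genes had nearly equal untreated replicates and nearly equal CPA replicates.

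Other chaperone genes ranged from no call to wider rises, with Dnajc1, a J protein, at 32.9 and 31.8 CPM untreated and 34.5 and 32.4 with CPA (adjusted p = 0.927). Dnajc3 (p58IPK), a J protein that hands clients to BiP, was at 41.2 and 39.5 CPM untreated and 327 and 345 CPM with CPA (3.06 ± 0.24, adjusted p = 6.6e-07). Sdf2l1, found in BiP complexes, went from 13.6 and 10.9 CPM to 223 and 233 (4.21 ± 0.31). Creld2, a secreted ER stress protein with disulfide exchange activity, went from 9.3 and 9.8 CPM to 98.2 and 209 (3.91 ± 0.29), and here the CPA replicates differed by more than 2-fold while staying clear of the untreated ones. Dnajb9 rose by 2.57 ± 0.26, and the lectin chaperone Calr by 1.95 ± 0.27. The list's CPM summed to 2735 and 2652 in untreated libraries and to 12350 and 12470 with CPA. All 8 chaperone genes named as rising also rose with each of the 4 libraries left out. They passed without the replicate block, where 14 members of the list rose.

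**Figure D2:**
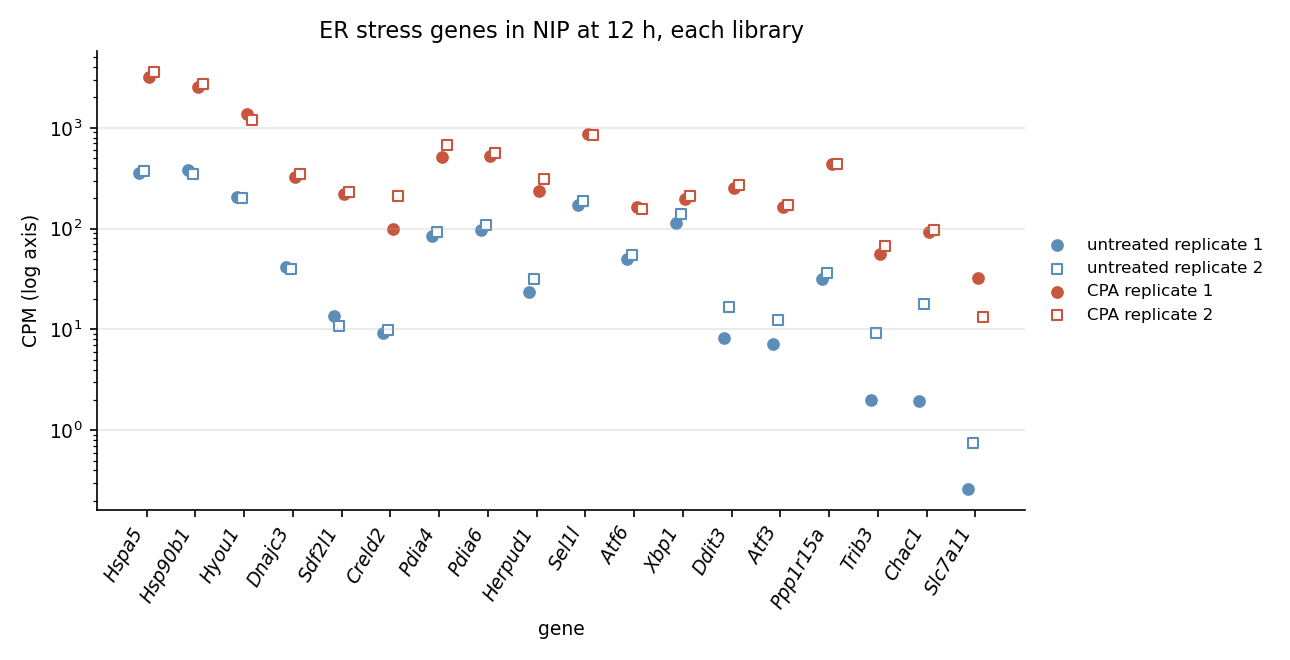
CPM on a log axis of 18 ER stress genes in each of the 4 libraries (blue untreated, red CPA, filled circles replicate 1, open squares replicate 2). Chaperones such as Hspa5 have tight untreated pairs, while Trib3 and Chac1 are lower in untreated replicate 1 than in untreated replicate 2.

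Enzymes that form and shuffle disulfide bonds rose in 10 of 20 cases and fell in 0 (median 0.80). Pdia4 was at 85.1 and 92.6 CPM untreated and 515 and 679 CPM with CPA (2.74 ± 0.24, adjusted p = 1.86e-06). Pdia6 rose by 2.42 ± 0.26, Pdia3 by 1.72 ± 0.24 and P4hb, the classical isomerase, by 1.38 ± 0.24. Ero1lb, an oxidase that recharges the isomerases, went from 13 and 11.2 CPM to 71.2 and 54 (2.36 ± 0.16, adjusted p = 1.96e-07). Its groups did not overlap, as in 27.1% of all genes with CPA higher. Txndc11, a thioredoxin-domain protein, rose by 1.27 ± 0.18. Tmx4, a membrane-bound member of the family and the most abundant that did not pass, was at 451 and 480 CPM untreated and 402 and 297 with CPA (adjusted p = 0.273).

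ER-associated degradation (ERAD), which pulls misfolded proteins into the cytosol for the proteasome, had 15 of 31 genes higher and 0 lower (median 0.47). Herpud1, a membrane protein that organises the ERAD complex, was at 23.5 and 32 CPM untreated and 236 and 313 CPM with CPA (3.31 ± 0.23, adjusted p = 2.94e-07). Sel1l, the adaptor of the ERAD ubiquitin ligase, went from 170 and 188 CPM to 865 and 846 (2.26 ± 0.18), and Syvn1, the ligase HRD1 itself, rose by 1.81 ± 0.19. The derlins, channel-like proteins of ERAD, differed in scale. Derl1 rose by 1.20 ± 0.15 and Derl2 by 1.19 ± 0.15, whereas Derl3 went from 5 reads over both untreated libraries to 805 over both CPA libraries (0.164 and 0 CPM, then 14.2 and 21.4; adjusted p = 9.06e-05). Vcp, the ATPase that extracts ERAD clients and the most abundant gene here at 745 and 601 CPM untreated, was at 654 and 519 CPM with CPA, and the groups overlapped (adjusted p = 0.487). The 12 isomerase and ERAD genes named as rising passed with each library left out and without the block, where 8 and 11 members of the lists rose.

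Genes that bring proteins into the ER and decorate them rose in 25 of 39 cases (median 0.69). Ostc, a subunit of the oligosaccharyltransferase, was at 51.2 and 52.4 CPM untreated and 155 and 128 CPM with CPA (1.45 ± 0.22, adjusted p = 0.000384). Its partner Rpn1 rose by 1.29 ± 0.20 and the catalytic subunit Stt3a by 1.21 ± 0.19, while the other catalytic subunit, Stt3b, was at 346 and 319 CPM untreated and 387 and 349 CPM with CPA (0.15 ± 0.15, adjusted p = 0.584). Stt3a acts on proteins as they enter the ER and Stt3b on sites that were skipped. The translocon-associated Ssr3 rose by 1.31 ± 0.22, the signal peptidase subunit Spcs2 by 1.13 ± 0.17 and Dpagt1, the first enzyme of glycan assembly, by 1.03 ± 0.14. For vesicle traffic between ER and Golgi, 21 of 43 genes rose and 0 fell (median 0.47). Sec24d, a cargo adaptor of COPII vesicles, went from 56.4 and 44.9 CPM to 187 and 175 (1.83 ± 0.25, adjusted p = 0.000175), and Mcfd2 (1.28 ± 0.15), Surf4 (1.25 ± 0.21), Tmed2 (1.11 ± 0.16) and Uso1 (1.11 ± 0.17) rose as well. Copa, a COPI coat subunit, rose by 0.68 ± 0.14 but did not pass without CPA replicate 1 (adjusted p = 0.0645). Without the block 12 and 12 members of the lists rose. Entry genes numbered 15 and 16 without untreated replicate 1 or 2 and 14 without CPA replicate 1, and traffic genes 12 without untreated replicate 2 and 12 without CPA replicate 1.

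Promoters of these genes were read for elements known from the UPR. The searched letters, on both strands, were CCAAT followed by CCACG with 9 bases of any kind between (ERSE, bound by ATF6 with NF-Y), ATTGG followed by CCACG with 1 base between (ERSE-II), TGACGTGG (UPRE) and TGATGNAA (CARE, a site type of ATF4 with C/EBP partners). The ERSE and ERSE-II both end in CCACG, so matches to both can overlap and use the same CCACG. A window of 250 bases before the start was available for 11030 of the tested genes in the RefSeq table. Matches describe letters and are no evidence of binding. The ERSE stood in 17 of all 11030 windows (0.154%), in 12 of 864 genes that rose (1.39%) and in 0 of 701 that fell. Of 20 ER chaperone windows 6 held it, among them those of Hspa5, Hsp90b1, Dnajc3, Creld2 and Calr. The Hsp90b1 window held a pair of matches. The ERSE-II stood in 5 windows in all, 4 of them of genes that rose. The CARE stood in 219 windows (1.99%), in 36 of the genes that rose (4.17%), in 9 of 69 that rose at least 8-fold and in 17 of those that fell (2.43%). The UPRE stood in 80 windows (0.725%), 16 of them of genes that rose (1.85%).

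The windows of 5 genes with wide rises show the elements in place. All are from the RefSeq table on GRCm38.p6, 5′ to 3′ on the gene's strand, and end 1 base before the start. Capitals mark the match: the ERSE in Hspa5 and Derl3, the CARE and then the ERSE-II in Herpud1, and the CARE in Atf3 and in Slc7a11, which has a pair. Positions are chr2:34771840-34772089 (plus strand) for Hspa5, chr10:75893148-75893397 (plus) for Derl3, chr8:94386179-94386428 (plus) for Herpud1, chr1:191183334-191183583 (minus) for Atf3 and chr3:50443614-50443863 (minus) for Slc7a11.
Hspa5: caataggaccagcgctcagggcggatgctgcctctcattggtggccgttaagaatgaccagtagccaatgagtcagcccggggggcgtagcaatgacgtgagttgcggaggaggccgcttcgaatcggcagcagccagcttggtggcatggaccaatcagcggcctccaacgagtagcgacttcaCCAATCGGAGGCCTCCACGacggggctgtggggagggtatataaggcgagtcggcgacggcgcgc
Derl3: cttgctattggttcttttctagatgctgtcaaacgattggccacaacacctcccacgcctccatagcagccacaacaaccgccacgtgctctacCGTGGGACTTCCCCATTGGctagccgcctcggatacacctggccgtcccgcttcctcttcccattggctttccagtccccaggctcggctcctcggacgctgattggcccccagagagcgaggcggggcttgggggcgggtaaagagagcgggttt
Herpud1: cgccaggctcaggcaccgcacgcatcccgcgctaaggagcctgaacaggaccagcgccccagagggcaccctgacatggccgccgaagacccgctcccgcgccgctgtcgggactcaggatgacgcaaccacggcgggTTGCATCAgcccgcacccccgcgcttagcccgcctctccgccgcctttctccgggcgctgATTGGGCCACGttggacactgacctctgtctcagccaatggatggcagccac
Atf3: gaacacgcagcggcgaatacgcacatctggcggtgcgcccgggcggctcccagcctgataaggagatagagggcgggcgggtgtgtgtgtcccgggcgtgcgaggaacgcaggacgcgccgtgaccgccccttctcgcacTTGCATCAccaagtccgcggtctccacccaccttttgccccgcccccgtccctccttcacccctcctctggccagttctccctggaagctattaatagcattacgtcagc
Slc7a11: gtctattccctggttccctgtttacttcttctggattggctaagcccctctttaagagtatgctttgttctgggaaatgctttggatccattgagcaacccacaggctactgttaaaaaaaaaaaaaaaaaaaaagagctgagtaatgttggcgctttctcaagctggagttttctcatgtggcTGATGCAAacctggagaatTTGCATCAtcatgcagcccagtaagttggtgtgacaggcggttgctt
The ERSE of Hspa5 ran from base -65 to -47 before the start and lay on the gene's strand, while that of Derl3 (-156 to -138) lay on the other strand. In Herpud1 the ERSE-II ended 42 bases before the start.

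The list of UPR sensors and transcription factors had 12 of 16 genes that rose and 0 that fell (median 1.02). Ddit3, encoding CHOP, was at 8.31 and 16.7 CPM untreated and 252 and 271 CPM with CPA (4.46 ± 0.35, adjusted p = 2.76e-06). Atf4 went from 72.3 and 157 CPM to 409 and 374 (1.78 ± 0.27, adjusted p = 0.000471), and the untreated replicates differed by more than 2-fold while the CPA replicates were close. Cebpb, a C/EBP partner, went from 1.64 and 5.9 CPM to 27.1 and 37.5 (3.26 ± 0.34). Among the sensors, Atf6 was at 50.3 and 54.5 CPM untreated and 164 and 156 CPM with CPA (1.61 ± 0.16, adjusted p = 6.59e-06). Eif2ak3 rose by 0.89 ± 0.15 and Ern1 by 0.75 ± 0.21.

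Xbp1 rose by less than the genes above, from 114 and 140 CPM to 195 and 209 (0.68 ± 0.14, adjusted p = 0.0038). Counts per gene do not show its splicing. Atf5, another factor of the ATF4 group, went from 42.2 and 95.5 CPM to 152 and 206 (1.44 ± 0.20). Of the 8 factors named, 5 passed with each library left out and without the block. Without the block the adjusted p of Xbp1 was 0.0929, of Atf5 0.0575 and of Ern1 0.0981. Without CPA replicate 1 that of Xbp1 was 0.0585, and without untreated replicate 2 that of Ern1 was 0.282. In all 7 members of the list rose without the block.

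Effectors of the ATF4 and CHOP branch rose in 13 of 21 cases and fell in 0 (median 1.40, 9 without the block). Ppp1r15a, encoding GADD34, which reverses the translation block set by PERK, was at 31.6 and 36.2 CPM untreated and at 440 and 439 CPM with CPA (3.71 ± 0.24, adjusted p = 1.96e-07). Atf3, a stress factor, went from 7.16 and 12.4 CPM to 164 and 172 (4.14 ± 0.27, adjusted p = 1.96e-07). In both genes the CPA replicates were nearly equal. Trib3, a pseudokinase induced by CHOP, went from 2 and 9.24 CPM to 56.3 and 67.8 (3.69 ± 0.49, adjusted p = 0.000497). Chac1, which degrades glutathione, went from 1.94 and 17.8 CPM to 93.5 and 97.9 (3.52 ± 0.68, adjusted p = 0.0066), with a gap of about 9-fold between the untreated replicates. Gadd45a rose by 2.51 ± 0.18, Sesn2 by 1.79 ± 0.19 and Ddit4, an inhibitor of mTORC1, by 1.40 ± 0.19. Nupr1, a stress-induced chromatin protein, had 0 reads in both untreated libraries and 20 and 85 with CPA, at least 40.7-fold higher against a floor of 3 reads over the group (adjusted p = 0.00011, 0.0546 without the block). Vldlr, the most abundant effector that did not pass, was at 104 and 134 CPM untreated and 256 and 210 CPM with CPA (adjusted p = 0.0715).

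Amino acid supply and tRNA charging rose together. Of 20 genes of serine, one-carbon and amino acid synthesis 11 rose (median 1.28), of 19 amino acid transporters 10 (median 0.92) and of 20 cytosolic tRNA synthetases 13 (median 0.71), and 0 fell in each. In synthesis, Psph, the last step to serine, was at 7.56 and 14.6 CPM untreated and 56.1 and 41.5 CPM with CPA (2.19 ± 0.28, adjusted p = 0.000123). The mitochondrial one-carbon genes Shmt2 (2.17 ± 0.35), Mthfd1l (1.93 ± 0.27) and Aldh1l2 (1.87 ± 0.30) rose, as did Aldh18a1 in proline synthesis (1.21 ± 0.15) and the transaminase Gpt2 (1.36 ± 0.23). Asns, asparagine synthetase, was at 247 and 454 CPM untreated and 584 and 514 CPM with CPA (0.65 ± 0.23, adjusted p = 0.0733), and Psat1 at 161 and 291 against 416 and 303 (0.69 ± 0.39, adjusted p = 0.283).

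Among transporters, Slc7a11, the cystine importer, went from 0.263 and 0.743 CPM to 32.1 and 13.2 (5.44 ± 0.70, adjusted p = 0.000197), the widest rise of the list. The glycine transporter Slc6a9 went from 3.35 and 13.1 CPM to 91.6 and 77.8 (3.37 ± 0.47) and the arginine and lysine transporter Slc7a1 from 159 and 283 CPM to 970 and 775 (2.05 ± 0.36). Slc1a4 (1.23 ± 0.17), Slc3a2 (1.26 ± 0.21) and its partner Slc7a5 (1.25 ± 0.26) also rose. Of the synthetases, Wars rose by 1.42 ± 0.20, Tars by 1.30 ± 0.20, Eprs by 1.13 ± 0.17, Gars by 0.80 ± 0.19 and Aars by 0.68 ± 0.15. Mitochondrial tRNA synthetases, which form a separate set of genes, had 1 of 17 higher (median 0.044).

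The untreated replicates were unequal in these genes. In untreated NIP 18 of 20 synthesis genes were higher in replicate 2 than in replicate 1 (median log2 difference 0.87), as were 17 of 20 tRNA synthetases (0.38) and 20 of 21 effectors of the ATF4 and CHOP branch (0.38), against 47.8% of all genes. With CPA 6 of 20 synthesis genes and 0 of 20 synthetases were higher in replicate 2, and 17 of 21 of the effectors (48.4% of all genes). The median log2 ratio of CPA to untreated was 1.80 within replicate 1 and 0.73 within replicate 2 for synthesis genes, and 0.99 and 0.45 for synthetases. For ER chaperones it was 1.07 and 0.79, with untreated replicates at a median difference of 0.05. Without untreated replicate 1 there were 6 synthesis genes and 4 synthetases that rose, and without CPA replicate 1 6 and 6. Without the block the counts were 8, 7 and 6 for synthesis, transport and charging. Slc7a5, Aars and Gars did not pass without untreated replicate 1 (adjusted p = 0.0788, 0.158 and 0.205), and without the block that of Wars was 0.0513 and of Gars 0.0569.

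**Figure D3:**
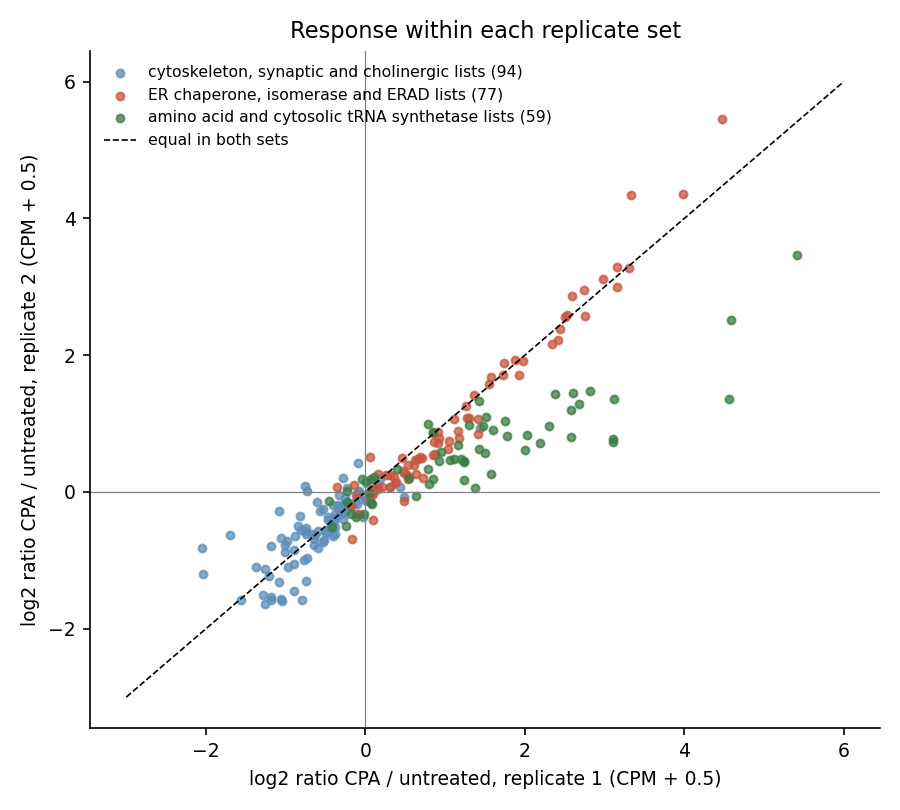
Log2 ratio of CPA to untreated (CPM + 0.5) within replicate 1 (x axis) and within replicate 2 (y axis) for genes of 9 lists, with a dashed line where both are equal. Most genes of the amino acid and synthetase lists (green) and of the ER lists (red) lie below the line. Medians are 1.80 and 0.73 for amino acid synthesis genes and 1.07 and 0.79 for ER chaperones. Of the neuronal lists (blue), 24 of 39 cytoskeleton, 14 of 37 synaptic and 10 of 18 cholinergic genes lie below it, against 50.8% of all genes.

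Of 18 genes for secreted factors linked to ER stress 11 were tested, and 6 rose and 1 fell (median 1.28). Fgf15, a fibroblast growth factor, was at 2.69 and 3.53 CPM untreated and at 28 and 38.9 CPM with CPA (3.43 ± 0.30, adjusted p = 1.87e-06). Stc2, a glycoprotein hormone induced by ATF4, went from 0.821 and 5.11 CPM to 47.9 and 38.4 (3.89 ± 0.60, adjusted p = 0.00132), and Vegfa, the vascular growth factor, from 15.7 and 44.9 CPM to 112 and 128 (2.12 ± 0.32). The groups did not overlap in any of these, as in 27.1% of all genes with CPA higher. Gdf15, a stress hormone, stayed scarce, with 0 reads in both untreated libraries and 5 and 10 with CPA, at least 5.82-fold higher (adjusted p = 0.0119, 0.123 without the block). Adm2 had 1 read untreated and 26 with CPA (ratio 30.2, exact 95% counting interval 4.97 to 1240; adjusted p = 0.00709, 0.144 without untreated replicate 1). Nrn1, encoding neuritin, which promotes neurite growth, fell from 96.9 and 98.3 CPM to 39.6 and 37.5 (-1.34 ± 0.17, adjusted p = 8.06e-05). Without untreated replicate 1 the list had 3 that rose.

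Genes that handle calcium moved both ways, 6 of 31 higher and 5 lower (median 0.14). These were 19.4% and 16.1%, against 7.54% and 6.54% of all genes. Atp2a2, encoding SERCA2, the pump that CPA blocks, was at 439 and 339 CPM untreated and at 896 and 784 CPM with CPA (1.12 ± 0.19, adjusted p = 0.000723). Tmbim6, an ER calcium leak protein that limits cell death, went from 187 and 242 CPM to 503 and 523 (1.27 ± 0.14, adjusted p = 2.06e-05). Genes that export calcium through the plasma membrane differed. The sodium-calcium exchanger Slc8a2 fell from 80.3 and 84 CPM to 31.4 and 31.7 (-1.38 ± 0.17) and the pump Atp2b4 from 19.9 and 26.1 CPM to 9.31 and 9.82 (-1.25 ± 0.21). Atp2b1, the most abundant pump of this kind, was at 369 and 286 CPM untreated and 308 and 240 CPM with CPA (adjusted p = 0.506), and the exchanger Slc24a3 was higher, at 14.1 and 12.4 CPM untreated and 25.5 and 23.6 CPM with CPA (adjusted p = 0.00293, 0.0625 without untreated replicate 1 and 0.148 without the block). Atp2a2, Tmbim6, Slc8a2 and Atp2b4 passed with each library left out and without the block. The count of rises was 2 without the block and 2 and 3 without untreated replicate 1 or CPA replicate 2. That of falls was 2 without the block, 3 and 2 without untreated replicate 1 or 2 and 2 without CPA replicate 1.

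Of 21 BCL2 family genes and caspases 4 rose (19% against 7.54% of all genes) and 0 fell (median 0.0046). The rises were in 3 BH3-only killers and a caspase activator. Bbc3, encoding PUMA, went from 28.3 and 42.9 CPM to 54.5 and 83.9 (0.96 ± 0.19, adjusted p = 0.00276), Hrk rose by 1.02 ± 0.25, Bcl2l11, encoding BIM, by 0.89 ± 0.21 and Apaf1 by 0.52 ± 0.16. Survival genes of the family did not pass. Mcl1 was at 149 and 130 CPM untreated and 147 and 129 CPM with CPA. Bcl2l1, encoding BCL-XL, was at 145 and 132 CPM untreated and 121 and 97.3 CPM with CPA. Further BH3-only genes did not pass either (edgeR). Pmaip1 changed by 0.04 (adjusted p = 0.943), Bmf by 0.45 (0.236), Bid by -0.06 (0.879) and Bad by 0.27 (0.443). Nor did Bax (0.0, adjusted p = 0.992) or Bak1 (0.18, 0.614) pass. Bbc3 passed with each library left out, with an adjusted p of 0.248 without the block. Bcl2l11 and Apaf1 did not pass without CPA replicate 1 (adjusted p = 0.114 and 0.264), and Hrk not without untreated replicate 1 (0.147). The list had 2 rises without the block, 1 without untreated replicate 1 and 2 without CPA replicate 1.

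Several lists of neuronal genes had more falls than rises. Of 39 genes for the neuronal cytoskeleton and axonal motors 11 fell and 0 rose (28.2% against 6.54% of all genes), with a median log2 change of -0.45. Tubb2b, a neuronal beta-tubulin, was at 1420 and 1520 CPM untreated and at 593 and 486 CPM with CPA (-1.46 ± 0.23, adjusted p = 0.000433). Tubb5 fell from 2510 and 3030 CPM to 1220 and 1000 (-1.32 ± 0.20), Tubb2a by 1.37 and Tuba1b by 1.31 on the log2 scale. Both CPA libraries lay below both untreated ones in each of these tubulins, as in 27.9% of all genes. Dctn1, a dynactin subunit of retrograde axonal transport, fell from 702 and 740 CPM to 347 and 402 (-0.95 ± 0.17). Nefl, the neurofilament light chain, fell from 2090 and 1490 CPM to 1040 and 866 (-0.90 ± 0.21, adjusted p = 0.00763), while Prph, encoding peripherin, was at 610 in both untreated libraries and 483 and 594 CPM with CPA (-0.19 ± 0.18, adjusted p = 0.548). Tubb3 fell by 0.86 and did not pass with any 1 of the 4 libraries left out (adjusted p up to 0.216, without untreated replicate 2). Kif5a, a kinesin, was at 1790 and 1540 CPM untreated and 1800 and 1690 CPM with CPA.

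Cholinergic genes fell in 10 of 18 cases and rose in 0 (55.6%, median -0.86). Ache, acetylcholinesterase, went from 165 and 229 CPM to 83.8 and 107 (-1.04 ± 0.19, adjusted p = 0.00135), and Bche, the related butyrylcholinesterase, from 148 and 171 CPM to 64.5 and 56.5 (-1.41 ± 0.23). Prima1, which anchors acetylcholinesterase in the membrane, fell by 1.45 on the log2 scale. Of the nicotinic receptor genes, Chrna4 fell from 30.3 and 15.7 CPM to 6.96 and 8.64 (-1.45 ± 0.28) and Chrna5 from 96.7 and 83 CPM to 45.5 and 33.1 (-1.22 ± 0.25). The most abundant nicotinic subunit gene, Chrna3, was at 369 and 281 CPM untreated and 221 and 114 CPM with CPA (adjusted p = 0.113). Slc10a4, a vesicle protein of cholinergic neurons, passed through the block alone (adjusted p = 0.000488, 0.492 without it), since its groups overlapped at 5.06 and 2.37 CPM untreated and 2.5 and 0.881 CPM with CPA. The 2 genes that make and load acetylcholine did not pass: Chat was at 10.1 and 6.04 CPM untreated and 5.76 and 6.42 CPM with CPA, and Slc18a3 at 153 and 134 against 90.1 and 90.

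Of the 14 cytoskeletal and cholinergic genes named as falling, 8 passed with each library left out and without the block. Without CPA replicate 1 the adjusted p of Nefl was 0.0912, of Chrna4 0.0555 and of Chrna5 0.0625, and without the block that of Tubb4a (-1.41 ± 0.17 with it) was 0.201, of Nefl 0.116, of Chrna4 0.0723 and of Chrna5 0.186. Without the block 6 cytoskeletal and 3 cholinergic genes fell. Without each library in turn 7 to 10 cytoskeletal genes fell, 7 without untreated replicate 1 and 7 without CPA replicate 1, and 5 to 6 cholinergic genes.

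**Figure D4:**
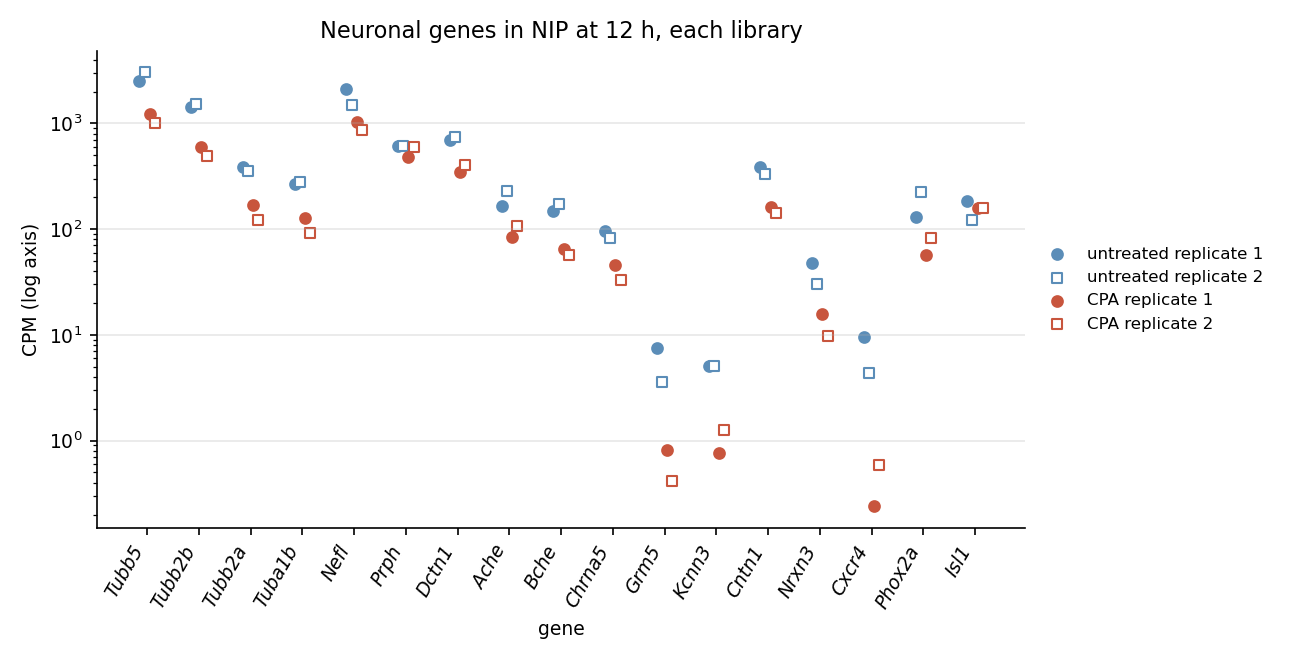
CPM on a log axis of 17 neuronal genes in each of the 4 libraries (blue untreated, red CPA, filled circles replicate 1, open squares replicate 2). Tubulins, Ache, Grm5 and Cxcr4 are lower in both CPA libraries, while Isl1 and Prph stay within a narrow range.

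Factors of motor neuron identity changed less evenly. In the list of cranial and branchial identity 5 of 25 genes fell and 1 rose (median -0.55). These were 20% and 4%, against 6.54% and 7.54% of all genes. The falls included the hindbrain genes Hoxb2 (-1.50 ± 0.29), Hoxb3 (-1.11 ± 0.30) and Hoxb4, from 12.2 and 10.5 CPM to 4.32 and 3.99 (-1.45 ± 0.26, adjusted p = 0.00122), with Ebf1 (-0.80 ± 0.22) and the GDNF receptor Ret (-0.80 ± 0.21). The rise, Gata2, had a level of about 1 CPM with CPA. Isl1 was at 183 and 123 CPM untreated and 158 and 157 CPM with CPA (0.09 ± 0.17), and Neurog2 at 93.1 and 81.9 against 108 and 160 (0.61 ± 0.20, adjusted p = 0.0542). In the spinal list 4 of 11 fell (36.4%, median -0.76). Lhx4 fell most clearly, from 6.08 and 3.86 CPM to 1.39 and 1.09 (-1.98 ± 0.28, adjusted p = 0.000197), with Onecut1, Onecut2 and Aldh1a2. Hoxb4 and Lhx4 were the 2 of these 10 genes that passed with each library left out and without the block. Without CPA replicate 1 the adjusted p of Hoxb2 was 0.057, of Hoxb3 0.275, of Ebf1 0.229, of Ret 0.225 and of Gata2 0.274. Cranial falls numbered 1 without the block, 2 without either untreated library and 1 without CPA replicate 1. Spinal falls numbered 1 without the block and 1 with any of the 4 libraries left out.

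Synaptic vesicle and release genes fell in 13 of 37 cases and rose in 1 (median -0.42), and voltage-gated channels in 16 of 54 with 1 rise (median -0.40). These falls were 35.1% and 29.6%, against 6.54% of all genes. Nrxn3, a presynaptic adhesion protein, fell from 47.8 and 30.2 CPM to 15.9 and 9.77 (-1.61 ± 0.22, adjusted p = 0.00013), and Snap25, a core of the release machine, from 394 and 318 CPM to 231 and 159 (-0.90 ± 0.21). Amph (-1.21 ± 0.23), Sncg (-1.23 ± 0.25) and Nrxn2 (-0.87 ± 0.18) fell too. Syt4, an atypical synaptotagmin, went the other way, from 717 and 541 CPM to 1940 and 1040 (1.17 ± 0.25, adjusted p = 0.00435, 0.285 without the block). Among channels, Kcnn3, a calcium-activated potassium channel, fell from 5.09 and 5.06 CPM to 0.768 and 1.26 (-2.36 ± 0.43, adjusted p = 0.00136), with Kcnh1 (-1.29 ± 0.28), Kcnj12 (-1.59 ± 0.33) and the sodium channel Scn3a (-0.98 ± 0.23). Cacna1b, an N-type calcium channel and one of the most abundant, was at 407 and 335 CPM untreated and 450 and 412 CPM with CPA.

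Receptors for glutamate, GABA and glycine fell in 10 of 42 cases (23.8% against 6.54% of all genes) and rose in 3 (median -0.49). Grm5, a metabotropic glutamate receptor, went from 7.52 and 3.58 CPM to 0.816 and 0.419 (-3.14 ± 0.43). Glra2 fell by 2.03 on the log2 scale. Cacng3, an auxiliary subunit of AMPA receptors, rose from 1.12 and 4.65 CPM to 20.7 and 22.9 (2.95 ± 0.47, adjusted p = 0.00088). Axon guidance and adhesion genes fell in 15 of 56 cases (26.8%) with 1 rise (median -0.43). The chemokine receptor Cxcr4 fell from 9.56 and 4.37 CPM to 0.24 and 0.587 (-4.02 ± 0.54, adjusted p = 0.000147), with Plxnd1 (-1.75 ± 0.25), Epha7 (-1.28 ± 0.18) and the adhesion protein Cntn1, from 390 and 329 CPM to 161 and 141 (-1.25 ± 0.22). The rise was in Unc5b, a netrin receptor, from 1.45 and 1.95 CPM to 7.25 and 8.43 (2.23 ± 0.37). L1cam, an abundant adhesion gene of the list, was at 970 and 858 CPM untreated and 913 and 902 CPM with CPA (adjusted p = 0.998).

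Falls in these 4 neuronal lists were fewer without the block and with single libraries left out, as they were over all genes. Without the block 4 synaptic, 3 channel, 4 receptor and 3 guidance genes fell. Over all genes tested 258 fell without the block (1.74%), in place of 967 (6.54%). Without CPA replicate 1 the counts were 1, 3, 4 and 4, without untreated replicate 1 they were 6, 8, 5 and 8, without untreated replicate 2 6, 5, 5 and 8, and without CPA replicate 2 10, 9, 7 and 8. Of the 18 genes named here as rising or falling 10 passed with each library left out, and 5 did so and also passed without the block: Kcnn3, Grm5, Cacng3, Cxcr4 and Cntn1. The 16 markers of postmitotic and motor neurons summed to 12230 and 9894 CPM untreated and 7898 and 6573 CPM with CPA, with 7 lower (0 without the block). Their part in these falls was not tested.

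Other stress and housekeeping groups moved little or in single members. Over all genes 7.54% rose and 6.54% fell, and some lists here were near that. Of dense-core genes 8% rose and 8% fell, and of autophagy genes 11.4% rose. Of 25 cytosolic heat shock genes 1 rose and 1 fell (median -0.12): Hspa8, the constitutive Hsp70, was at 2010 and 1970 CPM untreated and 1200 and 1080 CPM with CPA (-0.81 ± 0.21, adjusted p = 0.0157), and did not pass with any 1 of the 4 libraries left out. Mitochondrial chaperones and proteases had 3 of 17 higher, Hspa9 (1.01 ± 0.18) and Lonp1 (1.16 ± 0.17) among them, and 1 lower. Antioxidant genes of the NRF2 group had 5 of 23 higher and 2 lower, led by Hmox1, heme oxygenase, from 4.67 and 8.92 CPM to 45.5 and 52.1 (2.94 ± 0.32, adjusted p = 4.02e-05), with Srxn1 (0.91 ± 0.18). These rises numbered 3 without the block and 3 without untreated replicate 1 or 2 or CPA replicate 1, and the falls 0 without the block and 0 to 1 with a library left out. Autophagy genes had 4 of 35 higher, among them Atg13 (0.95 ± 0.13), Wipi1 (0.87 ± 0.16) and the receptor Sqstm1, from 296 and 285 CPM to 462 and 452 (0.65 ± 0.13). Nucb2, which encodes nesfatin, rose from 18.1 and 19.1 CPM to 183 and 114 (2.93 ± 0.31) among dense-core cargo genes, where 2 of 25 rose and 2 fell, the neuropeptide gene Adcyap1 (-1.55 ± 0.26) among them.

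Cholesterol and fatty acid synthesis had 9 of 31 genes lower and 1 higher (median -0.38), with a median log2 ratio of -0.096 within replicate 1 and -0.83 within replicate 2. Dhcr7 fell from 279 and 319 CPM to 166 and 96.3 (-1.21 ± 0.20, adjusted p = 0.000859) and Hmgcs1 from 1750 and 1360 CPM to 1060 and 450 (-1.16 ± 0.26). The CPA replicates differed by about 2-fold in both, replicate 2 being the lower. The falls numbered 1 without the block, 1 without CPA replicate 2, 2 without untreated replicate 2 and 5 without untreated replicate 1, and the adjusted p of Hmgcs1 was 0.104 without CPA replicate 2. Ebp, an isomerase of the same pathway, rose by 1.03 ± 0.19. Ribosomal proteins had 0 of 75 and replication-dependent histones 0 of 55 genes passing (edgeR), with medians of 0.115 and 0.442. Of 77 respiratory chain and ATP synthase genes 8 fell (10.4% against 6.54% of all genes) and 1 rose. Uqcrh fell by 0.90 on the log2 scale. Respiratory falls numbered 3 without the block and 1 to 5 with a library left out, 1 of them without CPA replicate 2. Translation factors had 9 of 64 higher, such as Eif1 (0.87 ± 0.15), and 3 lower, with 4 rises without the block and 3 without untreated replicate 1 or CPA replicate 1, and 0 falls without untreated replicate 2 or CPA replicate 1. The small nucleolar RNA host genes Snhg12 (2.49 ± 0.27) and Snhg1 (1.67 ± 0.27) rose among 4 of 16, a count of 2 without untreated replicate 2 or CPA replicate 2. Of 36 genes linked to amyotrophic lateral sclerosis 2 rose and 5 fell, with 1 fall without the block and 1 to 2 with any of the 4 libraries left out. Over all genes 7.54% rose and 6.54% fell, against 5.56% and 13.9% of these sclerosis-linked genes. Of 28 axon injury genes 4 rose (14.3%) and 1 fell (3.57%). Among them Sprr1a, a repair-associated gene, was at 6 and 1 reads untreated and 66 and 70 with CPA (4.44 ± 0.67).

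The widest changes outside the groups above rose from near absence. Hoxb9, a posterior homeobox gene, went from 0.131 and 0.372 CPM to 19 and 10.6 (5.90 ± 0.73, adjusted p = 0.000122), and Fam129a, a stress-induced gene also called Niban, from 0.394 and 1.81 CPM to 42 and 29 (5.21 ± 0.85). Steap1, a member of a metalloreductase family (5.34 ± 0.64), Trim66 (4.22 ± 0.73), Cyb5r2, a cytochrome b5 reductase (4.38 ± 0.68), the growth factor Fgf3 (4.89 ± 0.57) and the noncoding Panct2 (4.12 ± 0.70) rose at least 8-fold. Trim66 was unequal between untreated replicates, at 0.493 and 7.99 CPM, and reached 72.4 and 66.4 CPM with CPA.

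On the lower side stood Pigz, which adds a mannose to membrane anchors, from 10.2 and 8.55 CPM to 1.1 and 0.923 (-3.21 ± 0.29, adjusted p = 2.46e-06), and the adenosine receptor Adora2a, from 14 and 17.5 CPM to 1.82 and 1.59 (-3.20 ± 0.42). Lrrn4 (-3.41 ± 0.61), the receptor Gpr22 (-3.13 ± 0.40), the metalloprotease Mmp14 (-3.08 ± 0.56), Sphkap (-3.03 ± 0.63), the opioid receptor Oprd1 (-2.99 ± 0.49), the hyaluronan synthase Has3 (-2.98 ± 0.52), Bnc1 (-2.68 ± 0.37) and the transcription factor Mef2c (-2.67 ± 0.36) also fell. Mef2c went from 26.1 and 41.7 CPM to 3.74 and 6.84. Of these 17 genes 15 passed with each library left out and without the block. The adjusted p of Mmp14 was 0.0511 without CPA replicate 2 and that of Sphkap 0.0969 without CPA replicate 1.

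The 12 h response was set against that of NIL, the spinal line, whose treated and untreated libraries are separate from those of NIP. NIL libraries at 12 h held 7996454 to 26821415 gene reads. The fewest were in untreated replicate 2, where 42.6% of reads mapped to several places. The chi-square per degree of freedom between replicates was 125 in untreated NIL and 56.2 with CPA, against 39.1 and 46.5 in NIP. The effect of this on the NIL counts was not tested. In NIL 1174 genes passed (7.94%), 616 higher (4.16%) and 558 lower (3.77%). Of these, 819 also passed in NIP in the same direction, and 1 passed there in the opposite direction. The 819 were 69.8% of the NIL genes and 39.3% of the NIP genes. In the test of the difference itself 0 genes passed with edgeR, 730 had an unadjusted p below 0.05 (4.94%), and DESeq2 called 51 of 13644. The log2 change of Hspa5 was 3.22 ± 0.26 in NIP and 3.18 in NIL, that of Sdf2l1 4.21 and 3.97, and that of the ERAD gene Herpud1 3.31 and 3.51. Chac1 was at 3.52 in NIP and 5.33 in NIL and Trib3 at 3.69 and 5.21. Median log2 changes were 1.28 in NIP and 2.08 in NIL for amino acid synthesis genes, 1.06 and 0.91 for chaperones and -0.86 and -0.39 for cholinergic genes, and no gene passed the edgeR test of the difference between lines.

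Within NIP the 12 h response was also set against that at 36 h, which has its own untreated libraries. At 36 h 1517 genes passed (10.3%), 755 higher (5.1%) and 762 lower (5.15%). Of them 682 also passed at 12 h in the same direction, and 18 passed there in the opposite direction. The 682 were 45.0% of the 36 h genes and 32.7% of the 12 h genes. The responses differed in 161 genes (1.09%), 81 with a more positive change at 36 h and 80 with a more negative one. Without the block 2 genes differed, and with DESeq2 366 (2.68%). That count was 31 without the 2 libraries of the series with the highest Rn45s share, 1 of which is untreated NIP at 36 h, replicate 1. It was 64 and 37 without untreated NIP 12 h replicate 1 or 2, 22 without CPA 12 h replicate 2, and 32 and 55 without untreated NIP 36 h replicate 1 or 2.

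Fgf15 rose at 12 h (3.43 ± 0.30) and fell at 36 h (-1.74), a difference of -5.17 ± 0.43 (adjusted p = 1.54e-05) that passed in every setting tried. Atf3 went from 4.14 at 12 h to 0.99 at 36 h (difference -3.16 ± 0.35, adjusted p = 0.000652), Hhip, a hedgehog-binding protein, from 2.82 to 0.03 (-2.79 ± 0.32) and Ano1, a calcium-activated chloride channel, from 3.41 to -0.58 (-3.98 ± 0.59). These 4 of the 16 genes named for this difference passed with each NIP library left out. Among UPR genes Dnajc3 was at 3.06 at 12 h and 1.64 at 36 h (adjusted p of the difference 0.0399), Sel1l at 2.26 and 1.10 (0.0306), Ero1lb at 2.36 and 0.56 (0.000829) and Eif2ak3 at 0.89 and -0.13 (0.0347). Hspa5, at 3.22 and 2.04, did not pass (0.111). Only 1 of 26 chaperones, 1 of 20 isomerases, 1 of 31 ERAD genes and 1 of 16 UPR factors passed this test. List medians at 12 h and 36 h were 1.06 and 0.96 for chaperones and 0.80 and 0.58 for isomerases. They were 0.47 and 0.15 for ERAD genes and 1.02 and 1.14 for UPR factors. Hrk rose at 12 h and was at -1.14 at 36 h (difference -2.16, adjusted p = 0.01). Without the block Fgf15 was the only gene with a negative difference that passed, so Dnajc3, Sel1l, Ero1lb, Eif2ak3 and Hrk did not pass. Amino acid synthesis genes had medians of 1.28 at 12 h and 2.02 at 36 h, with 0 of 20 passing the test of the difference (edgeR). Untreated NIP itself had 0 genes that differed between 0 h and 12 h (edgeR; 1229 at an unadjusted p below 0.05, 8.31%).

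**Figure D5:**
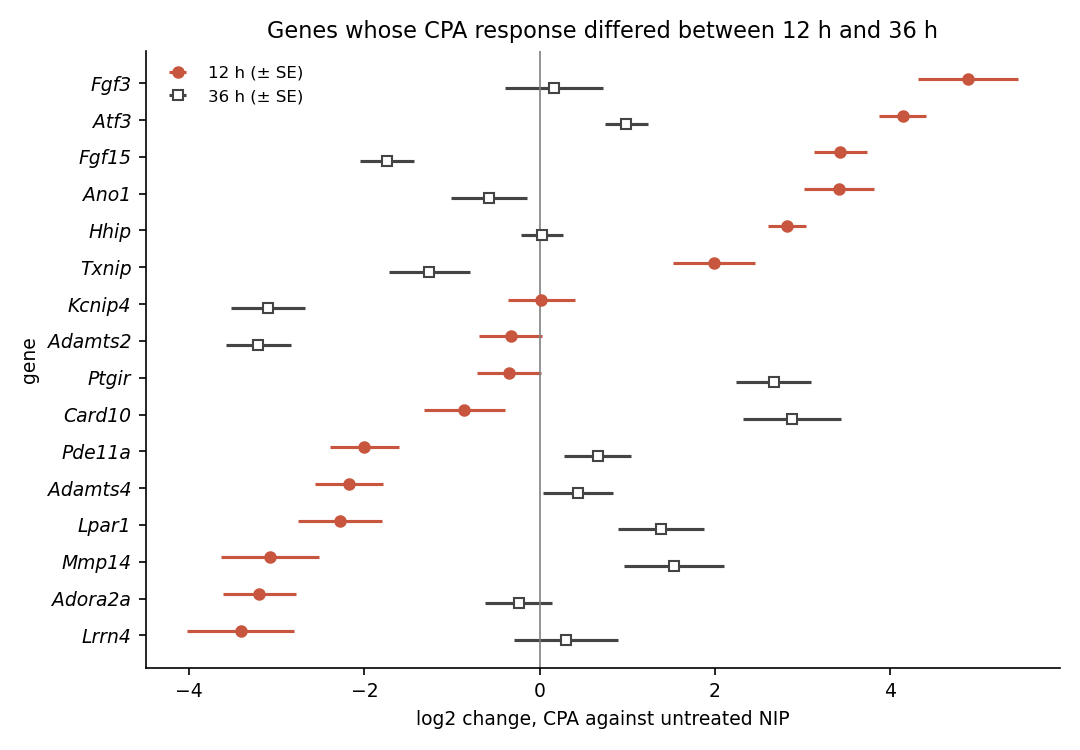
Log2 change with CPA against untreated NIP (x axis, ± SE) at 12 h (red circles) and at 36 h (open squares) for the 16 genes named for a difference between the times. Fgf15 is at 3.43 at 12 h and -1.74 at 36 h, and Mmp14 at -3.08 and 1.53.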

How the data were processed

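Total RNA was depleted of ribosomal RNA and sequenced on a NextSeq 500, per the labels' protocols. The authors deposited raw read counts per gene symbol, made with TopHat2 2.1.1, Bowtie2 2.3.2 and HTSeq 0.6.1p1 on GRCm38, per the submitters' processing notes. The strand setting and the annotation release are not given in the sources used here, so overlapping and antisense genes cannot be separated. In the 4 NIP 12 h files the summary lines, left out of library sizes, held 9.14% to 13.5% of reads with no gene, 0.351% to 0.458% ambiguous reads and 18.2% to 24.8% reads mapped to several places.

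From these counts a robust edgeR 4.0.16 quasi-likelihood model (R 4.3.3) was fitted to all 20 libraries, which share 1 estimate of spread, with 10 groups, TMM scaling, the replicate number as a block, and the 14792 genes kept by filterByExpr. Calls used a Benjamini-Hochberg adjusted p below 0.05. CPM values are counts per 1000000 reads of the TMM-scaled library size. Whether replicate numbers pair libraries was checked by the correlation of deviations from group means, which was 0.243 to 0.763 (median 0.467) over 45 pairs of groups and 0.438 for the NIP 12 h pair. The pairing therefore rests on the data and the shared number, not on a stated batch. The fit without the block, DESeq2 1.42.0, other scaling, no filter, subsets of libraries and each library left out were alternatives.

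The comparison, its members and all 45 gene lists were chosen with earlier results of these data known. Genes named are the 12 widest rises and falls (at least 5 CPM in the higher group, no overlap), up to 6 called members per list by p, 3 per list by level, 8 each way for differences between responses, and a fixed set of UPR and motor neuron genes. Dnajc1 and Atp2b1 were named outside this rule, after their values were seen. The other marker lists gave 1 higher and 1 lower of 15 pluripotency genes, 2 higher of 27 proliferation genes, 1 lower of 18 progenitor genes, 1 higher of 12 mesenchyme genes, 2 lower of 7 glial genes and 0 passing (edgeR) of 18 endoderm and 8 other neuron genes. Of 43 proteasome genes 1 fell, and of 29 immediate early genes 3 rose and 2 fell (1 rise without the block or with any NIP 12 h library left out, and 0 falls without untreated replicate 2 or CPA replicate 1). Shares were 10.3% higher and 6.9% lower for immediate early genes, against 7.54% and 6.54% of all genes. Data over 14792 genes were simulated from the blocked model itself, with changes only in genes above a floor of CPM and untreated reads. Of these, 68% of 100 genes changed 2-fold and 96% of 100 changed 4-fold were recovered. There were 11 false calls among 14592 unchanged genes. Recovery of scarcer genes was not measured, and the false calls hold only for data that follow the block. Results that need some genes are not reported here.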

Additional observations from a re-analysis of the deposited data

Results flagged for a closer look

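The test of the difference itself set apart 16 genes whose CPA response in NIP at 36 h differed from that at 12 h (edgeR, adjusted p below 0.05), chosen as the 8 widest in each direction. Values are log2 differences, 36 h minus 12 h, ± SE, and CPM are means ± SD with n = 2.

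In 6 genes the change was positive at 12 h and smaller or negative at 36 h. Fgf15 differed by -5.17 ± 0.43: it went from 3.112 ± 0.592 CPM untreated to 33.45 ± 7.74 CPM with CPA at 12 h and from 7.734 ± 2.38 to 2.234 ± 0.492 CPM at 36 h. Fgf3, of the same family, differed by -4.73 ± 0.80 and the chloride channel gene Ano1 by -3.98 ± 0.59. Atf3 differed by -3.16 ± 0.35, with 9.806 ± 3.74 and 168.3 ± 5.93 CPM at 12 h and 20.41 ± 1.30 and 41.06 ± 11.5 CPM at 36 h, and there it still rose. Hhip differed by -2.79 ± 0.32. Txnip, a thioredoxin inhibitor, differed by -3.25 ± 0.65, with changes of 1.99 at 12 h and -1.26 at 36 h.

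The metalloprotease gene Adamts2 (-2.88 ± 0.51) and the channel-interacting gene Kcnip4 (-3.12 ± 0.57) fell at 36 h and did not pass at 12 h. Their untreated levels were themselves higher at 36 h, 38.87 ± 2.89 against 4.904 ± 2.20 CPM for Adamts2.

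Of the positive differences, Mmp14 (4.61 ± 0.79), Lrrn4 (3.71 ± 0.85), Lpar1 (3.67 ± 0.68), Adora2a (2.95 ± 0.56), Pde11a (2.66 ± 0.54) and Adamts4 (2.62 ± 0.56) fell at 12 h and did not pass at 36 h. Card10 (3.74 ± 0.73) and the prostacyclin receptor gene Ptgir (3.02 ± 0.57) rose at 36 h and did not pass at 12 h. With each NIP library left out 4 of the 16 passed throughout, Fgf15, Atf3, Ano1 and Hhip, and without the replicate block 1 passed, Fgf15.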

How the results depend on the processing

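Without the replicate block the pairing of libraries is ignored, and CPA against untreated NIP at 12 h gave 696 genes in place of 2083, or 956 with the 4 libraries alone. The difference between 36 h and 12 h gave 2 in place of 161, and that between NIP and NIL remained at 0. A block within each line gave 402 and 24 for these differences. With 1 library left out in turn the 12 h count ranged from 858 to 1202, the NIP to NIL count from 0 to 9 (9 without untreated NIP replicate 1, 2 without NIP CPA replicate 2) and the 36 h to 12 h count from 22 to 216. A side left with 1 library is assumed to vary like the other groups. DESeq2 gave 51 and 366 for the differences and no filter on low counts gave 4 for the first. NIP libraries alone gave 260 and leaving out the 2 libraries with the highest Rn45s share gave 31 for the second. The cause of these moves was not tested, beyond the fewer libraries some hold. Other scaling, no filter, DESeq2, Rn45s left out and NIP alone kept the 12 h count at 1876 to 2703, and a block within each line gave 2878. No named gene reversed its direction: 3913 values kept their side of the threshold, 487 lost the call and 35 gained it. Genes under about 1 CPM rest on few reads.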

Other observations

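Lars2, a mitochondrial leucyl-tRNA synthetase gene, varied more between libraries than between groups. At 12 h in NIP it was at 181 and 31 CPM untreated and at 3180 and 48.9 CPM with CPA. Over all 20 libraries the median was 166 CPM, the lowest was 31 CPM and the highest was 33500 CPM, in NIL CPA 36 h replicate 2, followed by 29100 CPM in untreated NIP 36 h replicate 1. Those 2 libraries also had the highest Rn45s levels, 517200 and 590100 CPM.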
